A study of Mus musculus with 23 samples.

Results

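The genes described here are 56 of 24940 gene symbols. Their RNA was found in Pan02 tumors and was low, though often not absent, in tumors of 4 other mouse models. They were chosen on the tumor counts themselves. For every symbol the transcript with the largest mean count was kept, counts were turned into CPM, the count of a gene scaled by the total count of the tumor, and a symbol was taken if its mean over the Pan02 tumors was at least 4 CPM and its value was under 1 CPM in each of the 12 other tumors. These thresholds were met by 64 symbols, and 8 of them (Chil4, Cldn10, Cldn3, Cldn7, Ehf, Krt13, Krt76 and Wnt4) were left out by name, because keratins, claudins, collagens, Wnt, Hox, Rhox and Mage genes and 10 named epithelial genes were set aside. The levels in whole tumors therefore describe the choice and carry no test. Cancer-associated fibroblasts (CAFs) from the same models were not used in the choice and were tested.

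The study compared syngeneic subcutaneous tumors, grown from cancer cell lines in mice of the strain the lines came from. The 15 tumors were 3 each of B16 (the B16-F10 melanoma line), EO771 (the EO771.LMB breast carcinoma line), LL2 (LL/2 lung carcinoma), MC38 (colon carcinoma) and Pan02 (pancreatic ductal carcinoma), each started from 500000 cells in the flank of an untreated wild-type adult female C57BL/6 mouse and taken at the endpoint, with ulcerated tumors left out by the study. RNA came from whole fragments, so it mixes cancer, stromal and immune cells, and was sequenced as poly(A)-selected libraries. Whether the counts separate the strands was not checked here. The 8 CAF libraries came in pairs from Pan02, MC38, LL2 and EO771 tumors and hold FAP+ cells that were sorted by FACS out of the CD45- fraction of tumors, and CT26 samples of the study were not analysed here.

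Each model is 1 transplanted line that grew under the skin and not in its organ of origin, so the model and the line cannot be told apart. The titles of the 3 Pan02 tumors read Pan01, while their cell line label and the count columns give Pan02. In bulk RNA, fewer cells of a type and less RNA per cell cannot be told apart.

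Several of the 56 genes belong to known programs. Pdx1 is a transcription factor that patterns the embryonic pancreas and is needed for its formation. SLURP1 is a small secreted protein of the LY6/uPAR family, made by keratinocytes and other stratified epithelia and known to act on nicotinic acetylcholine receptors. Rnase2a and Prg2 encode granule proteins of eosinophils, the leukocytes known for their part in type 2 immunity.

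The 250 bases just before the start are shown for 4 genes, because these stand for different patterns below. They come from the RefSeq table of the GRCm38.p6 build, which matches mm10, and run 5′ to 3′ on the strand of the gene. Slc16a11 (chr11:70213660-70213909, plus strand) is a gene abundant in all 3 Pan02 tumors, and Rnase2a (chr14:51256113-51256362, minus strand) is one found almost wholly in 1 of them. Cryba4 (chr5:112252519-112252768, minus strand) and Crybb1 (chr5:112255570-112255819, plus strand) are a divergent pair of members.
Slc16a11: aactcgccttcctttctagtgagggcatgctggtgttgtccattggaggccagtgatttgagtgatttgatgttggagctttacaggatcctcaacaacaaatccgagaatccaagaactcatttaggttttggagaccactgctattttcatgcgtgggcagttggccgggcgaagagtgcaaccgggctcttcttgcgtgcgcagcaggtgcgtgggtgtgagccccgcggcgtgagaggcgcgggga
Rnase2a: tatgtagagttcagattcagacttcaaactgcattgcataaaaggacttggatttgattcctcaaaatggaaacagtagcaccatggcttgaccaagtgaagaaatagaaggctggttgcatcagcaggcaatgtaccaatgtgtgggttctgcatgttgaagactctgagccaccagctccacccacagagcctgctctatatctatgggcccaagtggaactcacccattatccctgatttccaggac
Cryba4: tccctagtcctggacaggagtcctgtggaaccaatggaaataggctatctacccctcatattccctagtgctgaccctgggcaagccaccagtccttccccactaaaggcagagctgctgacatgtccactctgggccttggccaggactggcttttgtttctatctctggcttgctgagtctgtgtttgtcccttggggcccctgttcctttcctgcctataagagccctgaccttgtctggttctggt
Crybb1: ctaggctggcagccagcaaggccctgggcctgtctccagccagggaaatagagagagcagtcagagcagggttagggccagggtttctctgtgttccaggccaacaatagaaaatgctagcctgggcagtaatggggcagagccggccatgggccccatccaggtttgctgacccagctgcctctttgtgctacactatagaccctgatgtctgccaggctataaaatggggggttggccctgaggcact

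The table of starts held 42 entries for 36 of the 56 members. The entries were searched on both strands for 3 sets of letters, 1 of which is not reported here, over 300 bases, 250 before and 50 after the start. The letters AACCNGTT, the core of the motif of grainyhead-like factors, were in 0 of the 42 entries and in 2.09% of all 32851 entries. The letters CCGGAA, the core of the motif of ETS factors such as Ehf and Elf3, were likewise in 0 of 42 and in 14.9% of all. Median GC content was 54.5% for the members and 52.7% for all entries. The absence of a match says only that these letters are not in this window.

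The members lay on 17 chromosomes, with at most 9 on any of them (chromosome 7), and 54 of the 56 are protein-coding. Only 4 lay within 100 kb of another member. Slurp1 (NM_020519, chr15:74726644-74728026) and Lypd2 (NM_026671, chr15:74732252-74734313) are neighbours on the minus strand, 4226 bases apart. Cryba4 (NM_021351, chr5:112246492-112252518) and Crybb1 (NM_023695, chr5:112255820-112269585) point away from each other across 3302 bases. Tmprss2 and Ripk4, both on the minus strand of chromosome 16, lay 130747 bases apart.

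Total counts were 10035173 to 21946486 per tumor, so 1 CPM stood for 10.0 to 21.9 reads, and 3 counts, the most a count of 0 allows, came to 0.148 to 0.299 CPM in the 12 other tumors (counting error only). The 56 genes together made up 888, 975 and 1104 CPM of Pan02 tumors 1, 2 and 3, and 6.33 to 17.1 CPM of any other tumor. Of the 672 values in other tumors, 166 were counts of 0. Only 11 members had at most 3 counts in all 12 other tumors. The median over members of the highest value in another tumor was 0.488 CPM. All 3 Pan02 tumors were above all 12 others for 50 members, a pattern that 5.19% of all symbols showed and that the choice itself favoured. The exceptions were Rnase2a, Mrgprg, R3hdml, Mucl1, Prg2 and Apol7c, each of which had 1 Pan02 tumor inside the range of the other models. By the same thresholds and with nothing left out by name, 95 symbols were restricted to B16, 35 to MC38, 14 to EO771 and 14 to LL2.

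**Figure D1:**
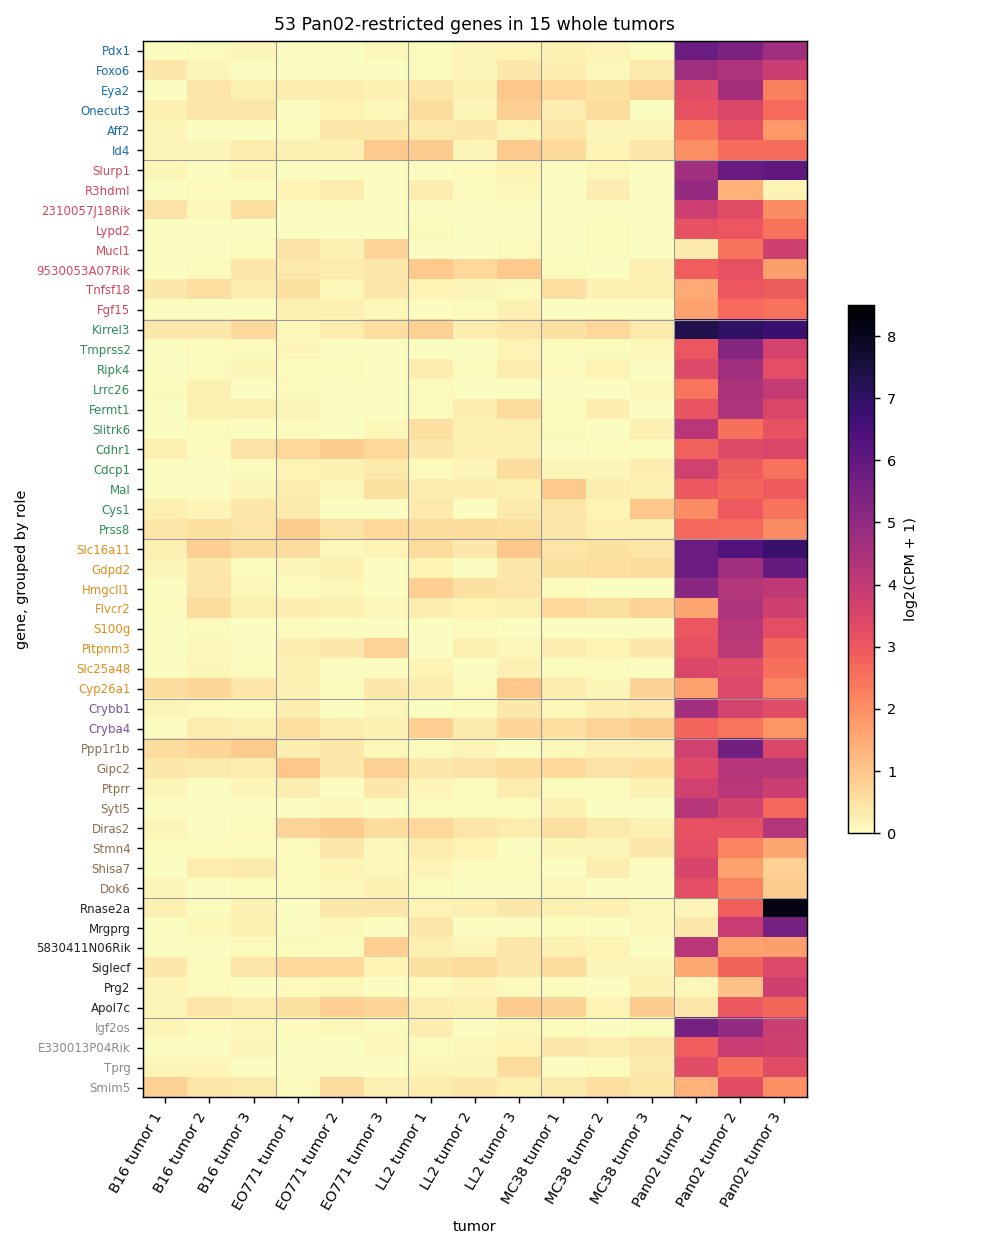
The heat map gives log2(CPM + 1) of 53 of the 56 genes (rows, grouped and coloured by role) in the 15 tumors (columns, 3 per model). The 12 columns of the other models are pale throughout, and the Pan02 columns differ among themselves, Rnase2a standing at 294 CPM in tumor 3 and 0.114 CPM in tumor 1.

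Members near the thresholds were as follows. Among the lowest Pan02 means inside were those of Fgf15 (4.05 CPM) and Dok6 (4.23 CPM), and just outside stood 0610040J01Rik (3.97 CPM), Slc35f2 (3.82 CPM) and Mir6978 (3.80 CPM). The highest values in another tumor were those of Gipc2 (1.00 CPM in an EO771 tumor), Cyp26a1 (0.980 CPM) and Eya2 (0.980 CPM, both in an LL2 tumor). LOC105245869 (1.04 CPM), Slc6a19 (1.04 CPM) and Ccr3 (1.05 CPM) fell just outside that limit. Ccr3, the eotaxin receptor of eosinophils, had a Pan02 mean of 4.82 CPM and missed the list through 1 MC38 tumor.

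The genes were grouped by their known roles after their names had been seen. Transcription regulators numbered 7, with Pdx1, Foxo6, Eya2, Onecut3, Aff2 and Id4 among them. Pdx1 had 54.4, 42.3 and 24.8 CPM in Pan02 tumors 1, 2 and 3, and at most 0.157 CPM elsewhere. Foxo6, a forkhead factor best known from the brain, had 25.5, 19.9 and 13.4 CPM against at most 0.306 CPM. Both genes were highest in tumor 1 and lowest in tumor 3.

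Eya2, a phosphatase and cofactor of sine oculis-type homeobox proteins, was highest in tumor 2, with 8.95, 23.4 and 3.89 CPM. Onecut3, a cut-homeobox factor, had 7.91, 10.3 and 5.28 CPM. Id4, an inhibitor of basic helix-loop-helix factors, had 3.03, 4.98 and 5.14 CPM, with up to 0.919 CPM in an LL2 tumor. Aff2, a gene of the AF4 family, had 4.31, 8.17 and 2.53 CPM.

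Secreted proteins and ligands numbered 8. Slurp1 had 24.0, 57.1 and 63.5 CPM in Pan02 tumors 1 to 3 (48.2 ± 21.2 SD, n = 3) and at most 0.123 CPM in another tumor, with no count in 7 of the 12. Its neighbour Lypd2, another LY6 family gene, had 7.77, 7.16 and 4.69 CPM, with no count in 10 of 12. The pair did not share an order, since tumor 1 was the lowest for Slurp1 and the highest for Lypd2. The genes whose values were most like those of Slurp1 across the 15 tumors were E330013P04Rik (Pearson r of log2(CPM + 1) = 0.99), Slc16a11 (0.99), Ptprr (0.99), Gipc2 (0.99) and Fgf15 (0.99), all of them members. These correlations describe a contrast of 3 Pan02 tumors with 12 others and share that contrast by choice.

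Among the other secreted products, Fgf15, the intestinal hormone that represses bile acid synthesis in liver, had 2.16, 5.30 and 4.69 CPM. Tnfsf18, the ligand of GITR, had 1.82, 7.22 and 6.45 CPM. R3hdml, a secreted protein of the CRISP family, was highest in tumor 1 with 29.4, 1.58 and 0.142 CPM, so tumor 3 was no higher than the other models (at most 0.255 CPM). Mucl1, a small mucin-like protein, had 0.273, 4.60 and 12.4 CPM, and tumor 1 lay within the range of the other models. The secreted proteins 2310057J18Rik (12.6, 8.83 and 3.12 CPM) and 9530053A07Rik (6.31, 8.26 and 2.30 CPM), which is related to the mucus protein FCGBP, were lowest in tumor 3.

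Epithelial proteases, junction and membrane proteins were the most numerous, with 12 genes. Kirrel3, an adhesion protein of the nephrin family, had 159, 127 and 109 CPM and at most 0.745 CPM elsewhere. Tmprss2, a membrane serine protease, had 7.29, 36.9 and 11.2 CPM. Ripk4, a kinase needed for keratinocyte differentiation, had 9.66, 24.3 and 8.38 CPM. Both, with Lrrc26 (4.49, 21.1 and 14.7 CPM) and Fermt1 (7.54, 19.4 and 10.3 CPM), which encode a subunit of BK channels and the integrin activator kindlin-1, were highest in tumor 2. Prss8, the protease prostasin, had 5.40, 5.17 and 3.12 CPM and was less variable. Mal, a protein of apical transport, had the smallest ratio of the highest to the lowest Pan02 tumor of any member, 1.26, with 6.95, 5.52 and 6.59 CPM. Slitrk6, Cdhr1, Cdcp1 and Cys1, of the same group, had Pan02 means of 4.83 to 9.95 CPM.

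Transporters, channels and enzymes numbered 9. Slc16a11, a monocarboxylate transporter, had 55.0, 78.6 and 112 CPM. Gdpd2, a glycerophosphodiester phosphodiesterase, had 54.0, 24.5 and 58.8 CPM. S100g, the calcium-binding protein calbindin-D9k of the intestine, had 7.24, 17.2 and 8.44 CPM against at most 0.0605 CPM elsewhere. Flvcr2, a choline transporter, had 2.03, 20.1 and 12.2 CPM, a spread of 9.91 times. Hmgcll1, a lyase of ketone body synthesis, had 34.5, 18.7 and 15.7 CPM. Pitpnm3, Slc25a48 and Cyp26a1, of the same group, had Pan02 means of 10.0, 7.92 and 5.18 CPM.

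The lens crystallins Crybb1 (23.8, 11.2 and 8.89 CPM) and Cryba4 (5.70, 4.45 and 2.64 CPM) were both highest in tumor 1 and lowest in tumor 3, and it is their starts, facing away from each other, that are shown above. Of 8 signalling, trafficking and synaptic genes, Ppp1r1b, which encodes the phosphatase inhibitor DARPP-32, had 11.9, 49.1 and 10.2 CPM, Ptprr, a tyrosine phosphatase, had 12, 17.1 and 13.3 CPM with a spread of 1.43 times, and Dok6, an adaptor of the RET receptor, had 8.41, 3.47 and 0.824 CPM. Gipc2, a PDZ-domain protein, had 9.45, 17.7 and 18.3 CPM, and Sytl5, Diras2, Stmn4 and Shisa7 had Pan02 means of 4.48 to 11.6 CPM. The other RNAs without an assigned role, E330013P04Rik (noncoding), Tprg and Smim5, had means of 10.9, 7.59 and 4.44 CPM. Igf2os, a noncoding RNA, had 46.2, 30.7 and 13.3 CPM, but 23.2% of its exon bases are shared with Igf2 and another gene. Igf2 itself, the fetal growth factor on the opposite strand, had 1537, 937 and 793 CPM in the Pan02 tumors and at most 14.9 CPM elsewhere. Unless the counts separate the strands, the reads of the pair cannot be told apart. Gipc2 (20.9%) and Fgf15 (25.7%) are the other members that share over 20% of their exon bases with other genes.

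Leukocyte genes numbered 6 and varied most. Rnase2a had 0.114, 6.37 and 294 CPM in Pan02 tumors 1, 2 and 3, Prg2 had 0.0911, 1.14 and 12.4 CPM, and Siglecf, the eosinophil surface lectin, had 1.94, 5.90 and 9.54 CPM. Mrgprg, a receptor of the Mas-related family, had 0.296, 14.0 and 46.3 CPM. All 4 were highest in tumor 3 and lowest in tumor 1, and for Rnase2a, Prg2 and Mrgprg tumor 1 lay within the range of the 12 other tumors. Apol7c, an apolipoprotein L gene of dendritic cells, had 0.319, 7.09 and 5.60 CPM, and 5830411N06Rik, a scavenger receptor of the family found on γδ T cells, had 17.0, 2.11 and 2.30 CPM.

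**Figure D2:**
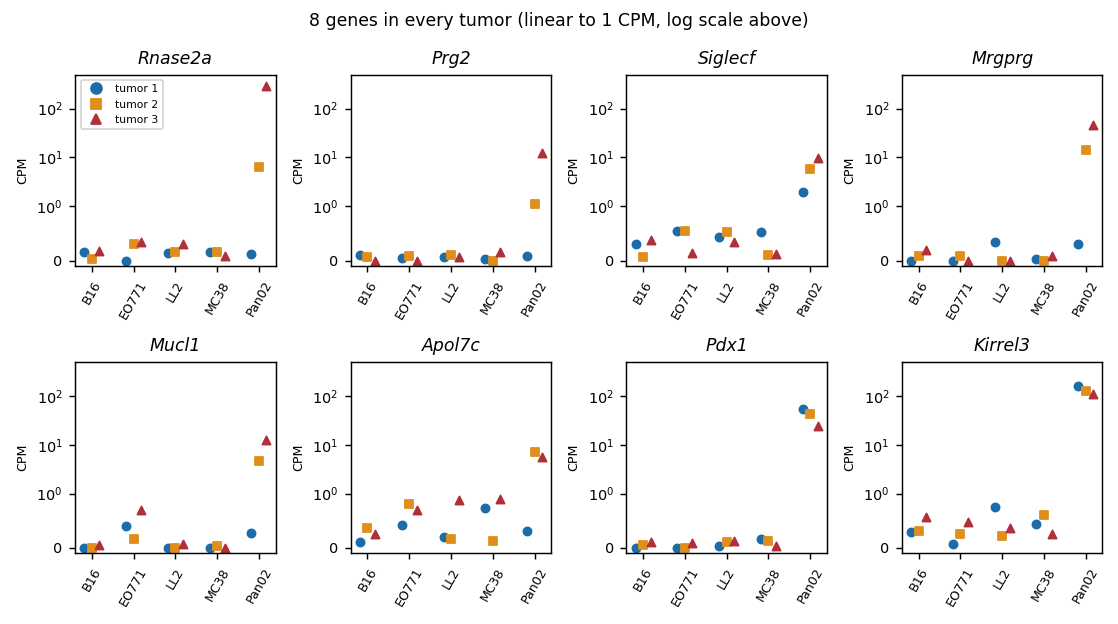
Each panel gives the CPM of 1 gene (linear up to 1 CPM, log scale above) in the 15 tumors, with circles, squares and triangles for tumors 1, 2 and 3 of each model. Rnase2a, Prg2, Siglecf, Mrgprg and Mucl1 are highest in tumor 3 and lowest in tumor 1 of Pan02, whereas Pdx1 and Kirrel3 are above 24 CPM in all 3 Pan02 tumors.

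Markers of eosinophils and mast cells outside the 56 genes had the following levels beside these. Summed over 9 such genes (mast cell genes for the most part), Pan02 tumors 1 to 3 had 347, 345 and 685 CPM and other tumors 1.64 to 394 CPM. Ccr3 had 0.137, 5.05 and 9.29 CPM in the Pan02 tumors. A list of 9 markers of alternatively activated macrophages summed to 171, 1057 and 5573 CPM in the Pan02 tumors, against 75.1 to 537 CPM elsewhere, and Chil4, left out by name, had 74.0, 856 and 2259 CPM. A list of 9 skeletal muscle markers ran the opposite way, with 861, 206 and 44.3 CPM in Pan02 tumors 1 to 3 and 5.56 to 3744 CPM elsewhere. Whether the share of any such cells sets the differences among Pan02 tumors was not tested.

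Across the 56 genes, the median ratio of the highest to the lowest Pan02 tumor was 2.66, with a range from 1.26 (Mal) to 2583 (Rnase2a). After Rnase2a the largest ratios were those of R3hdml (207) and Mrgprg (156), and after Mal the smallest were those of Ptprr (1.43) and Kirrel3 (1.45). Over the 10498 symbols with a Pan02 mean in the same range as the members, the median ratio was 1.40. Only 13 of the 56 members, 23.2%, stayed under a ratio of 2, where 81.3% of those symbols did. Without the 6 leukocyte genes the median was 2.5. Tumor 1 was the highest for 22 members, tumor 2 for 20 and tumor 3 for 14, and the corresponding shares of the 10498 symbols were 41.9%, 25% and 33.1%. These ratios have 1 value per tumor and no test.

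**Figure D3:**
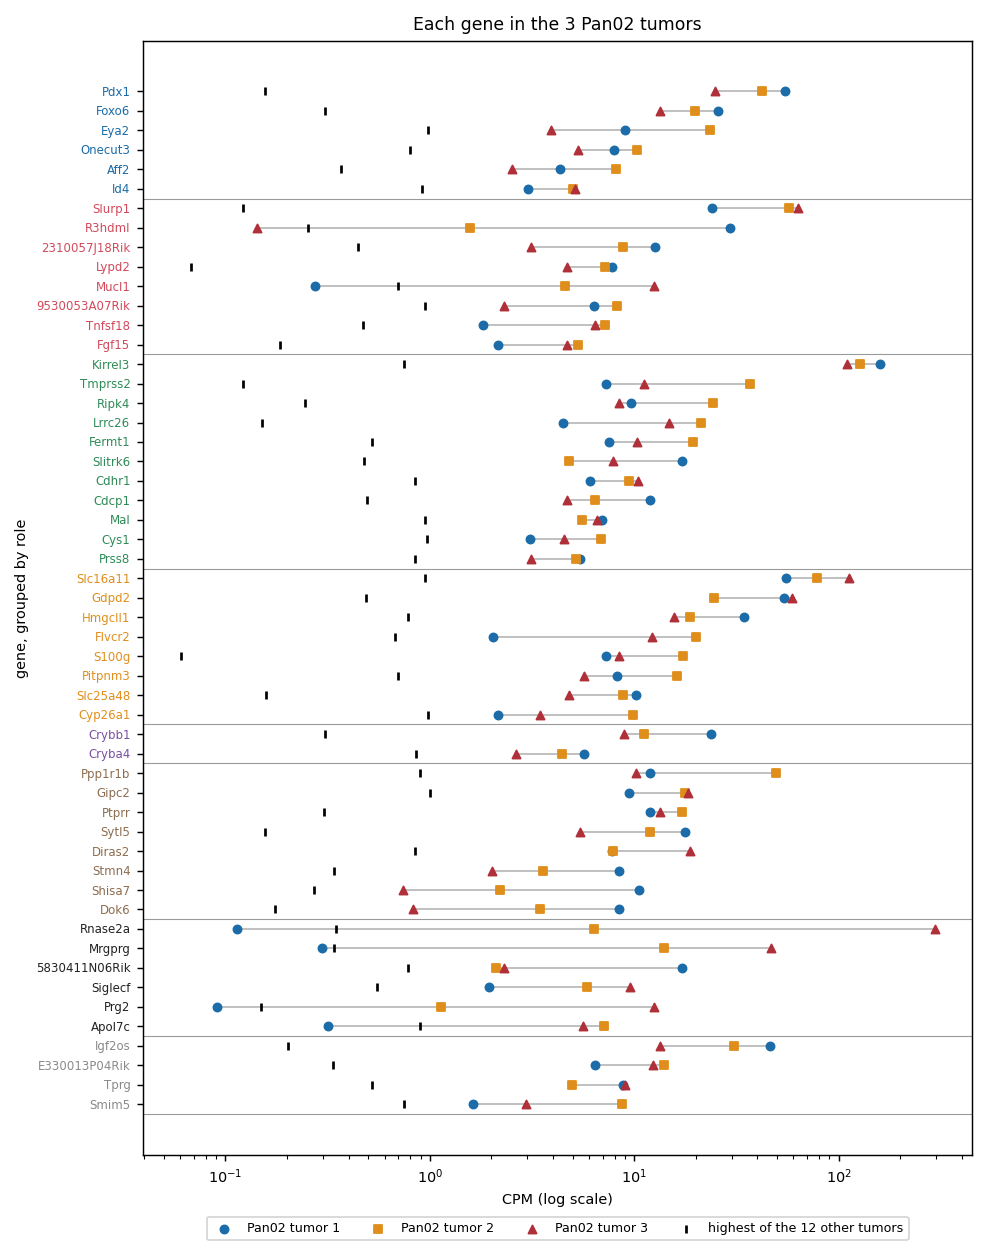
Each row gives the CPM (log scale) of 1 of 53 genes in Pan02 tumors 1 (circle), 2 (square) and 3 (triangle), joined by a line, with a tick at the highest of the 12 other tumors. Most lines span a ratio of about 2 to 5, and the lines of Rnase2a, Mrgprg, R3hdml, Mucl1, Prg2 and Apol7c cross the tick.

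The CAF libraries address whether the genes restricted to Pan02 tumors are also found in FAP+ cells sorted from them. Pan02 CAFs carried most of the 56 genes at levels well above CAFs of the other models. Values are RPKM, read numbers scaled by transcript length and library size, and the Pan02 libraries were tested against the mean of EO771, LL2 and MC38 with limma on log2(RPKM + 1). A gene entered the test if 2 or more libraries had 1 RPKM of it. Of all 56 members, 38 were higher and 1 was lower at an adjusted p under 0.05, 3 were tested and not called and 14 were too low to be tested (among them Rnase2a, Lrrc26, Pitpnm3, Mal, Siglecf, Mucl1, 9530053A07Rik, Cys1, Prss8, Prg2, Shisa7, Smim5 and Apol7c). Among all 13598 genes tested, 27.1% were higher and 26.5% lower. Since 35 of the 42 members tested passed the filter through the Pan02 libraries alone, the count was repeated without the filter, which gave 45 of 56 higher and 0 lower beside 15.9% and 15.8% of 22987 genes. By limma without the filter, the median log2 change was 1.53 over the members and -0.01 over all genes. Both Pan02 libraries lay above all 6 others for 43 members, against 12.8% of all symbols, and below all 6 for 1 member (Id4), against 9.75%. With the filter, 2 members were higher without the first Pan02 library and 4 without the second, because nearly all of those 35 then had no second library at 1 RPKM and left the test (Gdpd2, at 2.10 RPKM in an MC38 library, did not), and without the filter 42 and 43 were.

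Kirrel3 had 49.3 and 59.1 RPKM in the 2 Pan02 CAF libraries and 0.044 to 0.166 RPKM in the 6 others. Its log2 change was 5.63 ± 0.13 SE (adjusted p = 1.18e-05 by limma without the filter). The changes in this and the next paragraph are from that fit, since these members passed the filter through the Pan02 libraries alone. Pdx1 had 34.2 and 35.3 RPKM against at most 0.258 RPKM (5.05 ± 0.14). Gdpd2 had 35.0 and 56.1 RPKM (5.03 ± 0.23) and 0.877 and 2.10 RPKM in MC38 CAFs. These 3 genes had the largest changes of the members on the log2(RPKM + 1) scale, and none overlapped between Pan02 and the rest.

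Slc16a11 had 32.0 and 36.6 RPKM in Pan02 CAFs (4.96 ± 0.13). Slurp1 had 17.2 and 36.7 RPKM with at most 0.582 RPKM elsewhere (4.59 ± 0.31, adjusted p = 1.95e-04 by limma without the filter). Lypd2 had 2.73 and 2.12 RPKM and was listed at 0 in 5 of the 6 other libraries (1.71 ± 0.12). The RNA of 2310057J18Rik, a gene of the LEG1 family of secreted proteins, was at 17.4 and 15.8 RPKM (4.13 ± 0.09). The crystallins Crybb1 and Cryba4 were at 14.8 and 20.4 RPKM (3.99 ± 0.16) and at 6.78 and 9.29 RPKM (2.84 ± 0.22). Hmgcll1 (8.74 and 11.1 RPKM) and E330013P04Rik (8.35 and 17.6 RPKM) had changes of 3.32 ± 0.11 and 3.32 ± 0.27.

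By role, counts are given from limma without the filter, where 15.9% of all genes were higher. Of the transcription regulators 6 of 7 were higher in Pan02 CAFs, as were 10 of the 12 epithelial proteases, junction and membrane proteins, 9 of the 9 transporters, channels and enzymes, 6 of the 8 secreted proteins and both crystallins. With the filter these counts were 6, 7, 8, 5 and 2, Id4 was lower and Tnfsf18 was not called. Of the 8 signalling genes 7 were higher without the filter and 6 with it, and Stmn4, a stathmin of neurons, was not called with the filter (log2 change -0.38, adjusted p = 0.053 by limma), though it was lower without the first Pan02 library (adjusted p = 0.043) or the second MC38 library (0.042). Of the noncoding and remaining genes 4 of 4 were higher without the filter and 3 with it, and of the leukocyte genes 1 of 6 was higher in either fit.

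Of the 6 leukocyte genes, 5830411N06Rik was higher (4.44 and 2.23 RPKM), Mrgprg was not called and 4 were not tested. Rnase2a had 0.045 and 0.081 RPKM in Pan02 CAFs, Siglecf 0.000 and 0.078 RPKM, Prg2 0.000 and 0.370 RPKM and Apol7c was listed at 0 in both. Mrgprg was at 0.136 and 0.246 RPKM in Pan02 CAFs, under the 0.632 to 2.35 RPKM of EO771 and LL2 CAFs and above MC38 CAFs, where it was listed at 0 (log2 change -0.57 ± 0.24, adjusted p = 0.081 by limma). Without the second EO771 library Mrgprg was called lower (-0.75, adjusted p = 0.0062). Mucl1, which followed these genes across the Pan02 tumors, was listed at 0 in both Pan02 CAF libraries. The sort took cells from the CD45- fraction, and 9 leukocyte markers summed to 6.77 and 13.4 RPKM in Pan02 CAFs, within the 2.34 to 79.5 RPKM of the other libraries. None of those 9 was at 0 in both Pan02 libraries, and Ptprc, which encodes CD45, was at 0.090 and 0.092 RPKM.

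In a CAF library of another model, 9 members reached 1 RPKM, so restriction to Pan02 in whole tumors did not always hold in the sorted cells. They were Gdpd2, Mrgprg, Tmprss2, Gipc2, Cyp26a1, Tnfsf18, Cys1, Stmn4 and Id4. Id4 had 0.579 and 0.135 RPKM in Pan02 CAFs and 0.767 to 4.41 RPKM in the others (log2 change -1.04 ± 0.32, adjusted p = 0.027 by limma), and without the filter the adjusted p was 0.064. The call of Id4 was also lost without either EO771 library, either Pan02 library or the first LL2 library (adjusted p 0.053 to 0.18 by limma). Cyp26a1, the enzyme that degrades retinoic acid, had 2.79 and 1.80 RPKM in Pan02 CAFs and overlapped with 2.01 RPKM in an MC38 library (1.01 ± 0.28, adjusted p = 0.018 by limma, and 0.14 without the first Pan02 library). Tmprss2, with 1.25 and 0.960 RPKM in Pan02 CAFs, overlapped with 1.03 RPKM in an LL2 library (0.76 ± 0.13, adjusted p = 0.0022 by limma).

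Markers of other cells in the CAF libraries had the following levels beside these results. In the 2 Pan02 CAF libraries, 38 epithelial junction and polarity genes summed to 184 and 179 RPKM, against 40.6 to 66.6 RPKM in the 6 others. Of those tested, 11 of 17 were higher and 3 lower. Ehf, left out by name, was at 23.0 and 26.0 RPKM and Tspan8 at 214 and 233 RPKM. Epcam was at 2.08 and 0.764 RPKM, within the 0.188 to 2.46 RPKM of the other libraries, and 15 of the 38 genes were under 0.5 RPKM in both Pan02 libraries. The 9 fibroblast markers summed to 3131 and 2000 RPKM in Pan02 CAFs and to 1030 to 7707 RPKM in the others, with 0 of 9 higher and 2 lower. All 6 endothelial markers were lower in Pan02 CAFs by limma, with sums of 9.01 and 5.40 RPKM against 14.0 to 45.1 RPKM in the others, where 26.5% of all genes tested were lower. Fap, the sorting marker, was at 3.28 and 1.89 RPKM in Pan02 CAFs and at 4.29 to 11.4 RPKM in the others. The part of cancer or endothelial cells of the sorted fractions in these results was not tested.

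The tumor and CAF tables were normalized separately and their levels are only set side by side. Per kilobase, Pan02 tumors had 92.7 RPKM of Slurp1, 46.8 of Slc16a11, 35.5 of Kirrel3, 31.6 of Pdx1 and 17.7 of Gdpd2 as means of 3, and Pan02 CAFs had 26.9, 34.3, 54.2, 34.7 and 45.5 RPKM as means of 2. Rnase2a had 146 RPKM on average in the tumors, all but a small part from tumor 3, and 0.063 RPKM in the CAFs. For 12 of the 56 genes, Kirrel3 and Gdpd2 among them, the 2 tables are represented by different transcripts.

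**Figure D4:**
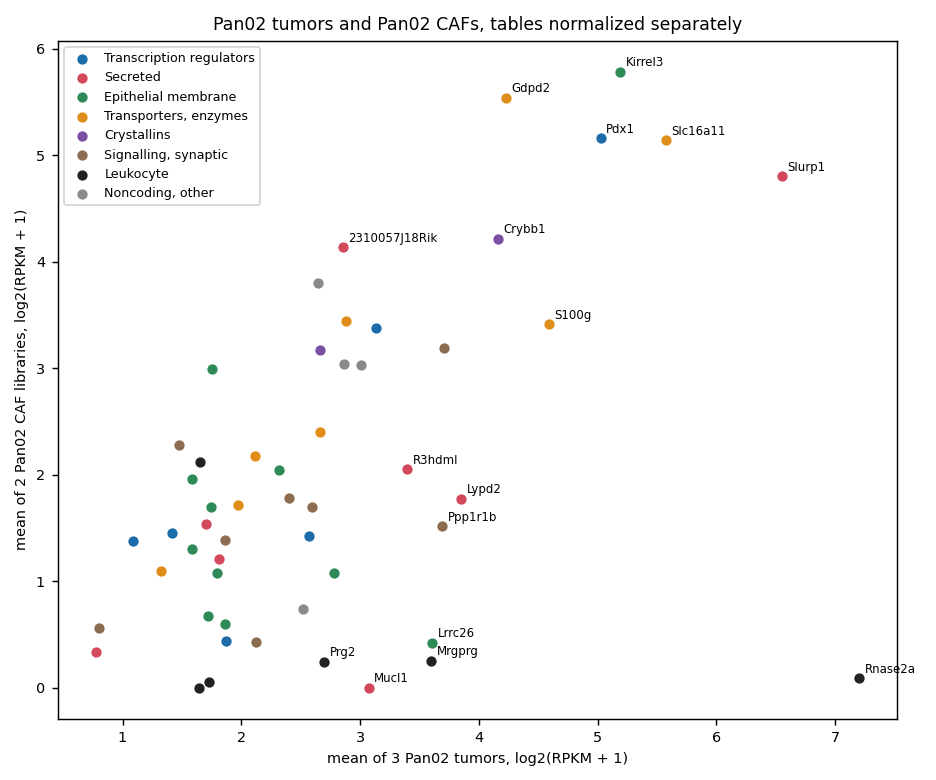
Each point is 1 of 53 of the 56 genes, with the mean of 3 Pan02 tumors on the horizontal and the mean of 2 Pan02 CAF libraries on the vertical axis, both as log2(RPKM + 1), coloured by role. Kirrel3, Gdpd2, Pdx1, Slc16a11 and Slurp1 are high on both axes, and Rnase2a, Mrgprg, Mucl1 and Prg2 lie along the bottom.

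Further genes outside the 56 were taken from fixed lists and tested in whole tumors with edgeR, Pan02 against the mean of the other models. The duct list held 2 of the members, the LY6 list 2 and the epithelial junction list 1. The squamous, acinar and islet lists held 0. Of 15722 genes tested, 18.8% were higher and 7.93% lower, a call needing an adjusted p under 0.05 together with a log2 change of 1 or more in size. Of epithelial junction and polarity genes, 23 of 32 tested were higher and 0 lower. The most abundant of these were Spint2, an inhibitor of membrane serine proteases (227 ± 75.8 CPM, SD, n = 3), Cdh1, which encodes E-cadherin (165 ± 79.8 CPM), Klf5 (124 ± 47.5 CPM) and Epn3 (53.8 ± 29.8 CPM). Epcam, which is usually abundant in epithelial cells, was at 1.47 ± 0.54 CPM, and 9 of the 32 genes were not called.

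Among gastric, biliary and pancreatic duct genes, 13 of 22 tested were higher and 0 lower, with Spp1 at 2674 ± 500.4 CPM, and Krt19 (328 ± 113 CPM), Krt7 (150 ± 70.3 CPM) and Onecut2 (46.2 ± 12.2 CPM) as the next in abundance. Sox9, a duct factor, was at 149 ± 52.1 CPM and was not called (log2 change 0.46, adjusted p = 0.18 by edgeR). Pancreatic acinar genes were hardly found, 5 of 27 being tested, and Reg1 alone was higher (1.66 ± 0.71 CPM). Of 18 islet genes 7 were tested, 3 were higher (Mafa and Chga among them) and Nkx2-2 was lower.

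Of squamous and cornified envelope genes, 13 of 19 tested were higher and 2 lower. The sum of this list was not particular to Pan02. Over 41 genes it was 332, 245 and 196 CPM in Pan02 tumors 1 to 3. It was 290, 336 and 378 CPM in EO771 tumors 1 to 3, and lower in every B16, LL2 and MC38 tumor. Ppl (periplakin, 83.9 ± 42.9 CPM), Trp63 (the p63 factor of basal epithelia, 29.1 ± 19.9 CPM), Evpl (envoplakin, 29.0 ± 12.4 CPM) and Pkp3 (plakophilin 3, 28.9 ± 7.46 CPM) were higher, and Dmkn and Lypd3 were lower. Ppl, Trp63 and Evpl were at most at 8.82 CPM in another tumor, but Pkp3 reached 49.9 CPM in an EO771 tumor. Sbsn, which was not called, had a Pan02 mean of 8.55 CPM and reached 181 CPM in an EO771 tumor. Of the LY6 and uPAR family, to which Slurp1 and Lypd2 belong, 7 of 15 tested were higher and 2 lower. Ly6e (1844 ± 278 CPM), Ly6a (550 ± 182 CPM), Ly6c1 (153 ± 33.8 CPM) and Lynx1 (80.5 ± 9.01 CPM) were higher, Lypd3 and Lypd5 were lower and Plaur, the uPA receptor, was not called. Ly6e reached 2069 CPM in an MC38 tumor, while Ly6a, Ly6c1 and Lynx1 were at most at 347, 78.9 and 20.2 CPM outside Pan02. The sum of this list was not particular to Pan02 either. Over 36 genes it was 2584, 3369 and 2498 CPM in Pan02 tumors 1 to 3 and reached 2688 CPM in an MC38 tumor.

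The 10 regulators and markers left out by name did not move together. Chil4 (1063 ± 1107 CPM), Tspan8 (185 ± 40.5 CPM), Ehf (96.3 ± 72.4 CPM) and Elf3 (23.6 ± 11.4 CPM) were higher. Grhl2, a grainyhead-like factor of epithelia, was lower, with a mean of 0.0294 CPM in Pan02 tumors and up to 1.04 CPM in an EO771 tumor. Ovol1 and Esrp1 were not called, and Grhl3, Rab25 and Elf5 had too few counts to be tested, their Pan02 means being 0.627, 0.208 and 0.0228 CPM.

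Markers of other cells that a tumor fragment could hold gave these counts of genes higher in Pan02. Of all genes tested, 18.8% were higher. All 9 fibroblast, all 9 alternatively activated macrophage and all 8 mast cell and eosinophil markers were higher, as were 5 of 6 B cell and plasma cell markers, 4 of 9 skeletal muscle, 3 of 6 skin keratinocyte, 3 of 9 leukocyte and 1 of 2 mesothelial markers (Msln). A call is against the mean of the other models, and single tumors could stand above Pan02. Hdc reached 49.3 CPM in an LL2 tumor (Pan02 mean 12.4 CPM) and Acta1 1554 CPM in an MC38 tumor (Pan02 mean 182 CPM). The 9 fibroblast markers summed to 37839, 37335 and 33014 CPM in Pan02 tumors 1 to 3 and to at most 10930 CPM elsewhere. None of 8 adipocyte, 6 endothelial, 1 hair follicle and 1 mammary epithelial marker was called in either direction, at these thresholds and with edgeR. In CAFs, Msln was at 131 and 142 RPKM in the Pan02 libraries and at 1.79 to 35.7 RPKM in the others.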

How the data were processed

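RNA of 15 whole tumors and 8 CAF libraries was analysed, and 5 columns of other samples were not used. The authors aligned reads to mm10 with STAR 2.5.0c and counted them over exons of RefSeq transcripts with HOMER. For tumors they deposited expected counts in steps of 0.5. For CAFs the authors deposited RPKM, that is, counts divided by transcript length and depth. The depth of CAF libraries is not given in the sources used here. Of 40458 transcripts, 2 name no gene and were left out (2.08e-05% of counts). The transcript kept for a symbol was that with the largest mean.

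Whether samples of a model came from separate mice is not labelled for each library, so p-values measure the spread between these samples, which may in part be technical. Members were found as described. Tumor counts were rounded up, filtered (filterByExpr), scaled (TMM) and tested with edgeR 4.0.16 (quasi-likelihood). CAF values were tested with limma 3.58.1 (trend, pseudocount 1). Adjustment was by Benjamini-Hochberg over all genes tested. Both tests were tried on simulated data with 200 changed genes. For tumors, edgeR found 168 of them and made 9 false calls over 15375 genes. For CAFs, limma found 166 and made 16 false calls over 13598 genes. The simulated tumor calls needed no fold threshold, unlike those reported. Apart from the 200 changed genes, no gene differed between models in either simulation, so these numbers do not measure the reported calls. DESeq2 1.42.0 was an alternative. Exon bases that a member shares with other genes were taken from GENCODE for mm10, whatever the strand.

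The members and the lists were chosen with earlier results of these data known. Genes are named if they are Slurp1, among the members with the highest Pan02 mean, at the ends of the spread over Pan02 tumors, near a threshold, called in CAFs, in one of 19 gene lists, close to another member, or among the most abundant called genes of a list (up to 4). Further members are named to describe their roles, chosen after their values were seen. Protein sequences were not used here. Some genes, 3 of the members included, are counted but not reported here by name or in figures. Software was Python 3.11.15 with pandas 2.3.3, numpy 2.4.6 and matplotlib 3.10.9, and R 4.3.3.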

Additional observations from a re-analysis of the deposited data

Results flagged for a closer look

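Id4 was the only member whose Pan02 values lay above every other model in whole tumors and below every other model in CAFs. Its mean was 4.38 CPM in Pan02 tumors, with at most 0.919 CPM in another tumor, and 0.357 RPKM in Pan02 CAFs, with at least 0.767 RPKM in another CAF library. The difference between the 2 contrasts was not tested, since the tables were normalized separately.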

How the results depend on the processing

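The number of members was 109 with a Pan02 mean of at least 2 CPM, 31 with at least 8 CPM, 29 with under 0.5 CPM in each other tumor, 109 with under 2 CPM, and 31 if every Pan02 tumor had to reach 4 CPM. It was 55 to 65 without any 1 tumor. Without Pan02 tumor 1, 2 or 3, 50, 50 and 49 of the 56 were found again. The count of members higher in Pan02 CAFs ran from 2 to 43 over the fits that left out a library. It was 2 without the first Pan02 library and 4 without the second, because the filter then needs a second library that few members have, and 42 and 43 in the same fits without the filter, an alternative chosen after seeing the data. A fit that leaves 1 Pan02 library assumes that it varies like the others. The count of members lower was 0 without the filter and 0 to 2 without a library, the call of Id4 being lost without either EO771 library, either Pan02 library or the first LL2 library (adjusted p 0.053 to 0.18 by limma). The count of members lower was also 0 without both the second Pan02 library and the filter. Genes higher in Pan02 CAFs numbered 2434 to 4271 and genes lower 2262 to 4150 without a library. The log2 change of Tnfsf18 ran from -0.14 to 0.76 when either Pan02 library was left out. Of 474 values of single members under alternatives, 463 kept direction and call, 7 were weaker, 3 stronger and 1 reversed. Members that left the test under an alternative have no value among these, as most did without either Pan02 library. In tumors, leaving out the fold threshold gave 9535 genes, 5111 higher and 4424 lower, in place of 2957 and 1246. Without the filter 3 acinar and 13 LY6 genes were higher, and with counts doubled 2 acinar genes were. Total-count scaling moved the median log2 change in tumors by -0.11. Leaving out any 1 tumor gave 4044 to 4576 genes. The replicate numbers did not pair the tumors across all models, the correlation of same-numbered tumors being -0.17 to 0.25 and over 0.1 in 5 of 30 pairs. Between B16 and Pan02, however, same-numbered tumors were at 0.21, 0.16 and 0.12, and different-numbered tumors at -0.13 to 0.02. Each tumor was centred on the mean of its model, so higher same-numbered values bring lower different-numbered ones with them. A different-numbered pair of other models, LL2 tumor 3 with Pan02 tumor 2, reached 0.27. Whether tumors of B16 and Pan02 share a batch was not tested. With the replicate block 4142 tumor genes passed, 2878 higher and 1264 lower. No paired analysis was possible for CAFs because their columns carry no replicate number. Depth limits what can be said of the other tumors, where 24.7% of the members' values are counts of 0.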
